A study of Rattus norvegicus with 18 samples.

Results

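The mitochondrial ribosomal protein genes were examined in whole kidneys of rats given adenine, with or without SZ-A, and of untreated rats. They were taken as all protein coding genes whose symbol is Mrpl or Mrps followed by a number, which gave 70 of the 32116 genes in the expression table. SZ rats were treated daily with adenine (100 mg per kg) and with SZ-A (300 mg per kg), CKD rats with that dose of adenine alone, and NC rats were untreated. Each group had 6 libraries of total RNA. Adenine overload is a standard way to injure kidney tubules in rodents. The labels give no strain, age, sex or length of treatment, and no source used here says what SZ-A is. They also do not say that each library came from its own rat. P-values then measure only the spread between these libraries, and some of that spread may be technical.

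The mitochondrial ribosome is a separate translation machine inside the organelle. Its proteins are encoded in the nucleus, made in the cytosol and imported, while its ribosomal RNAs are transcribed from the mitochondrial chromosome. It translates only the mRNAs of that chromosome, all of which encode core subunits of the respiratory chain and ATP synthase, on which the transport work of the proximal tubule depends. Genes named Mrpl mostly encode proteins of the large subunit, which joins amino acids, and genes named Mrps proteins of the small subunit, which reads the mRNA. Some symbols mislead: Mrps30 and Mrps18a encode large subunit proteins, and Mrps36 encodes a component of the oxoglutarate dehydrogenase complex of the citric acid cycle.

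Promoters of these genes are known for short elements bound by general activators of mitochondrial genes. RefSeq promoters (build GRCr8, 300 bases across each gene's start) were matched by symbol for 53 of the 68 genes tested below. The letters CGCATGCG, the core of NRF1 sites, stood in 6 of the 53 (11.3%), against 1.66% of all 33365 promoters in the table. The letters AAGATGGC, bound by YY1, stood in 13 (24.5%), against 3.18% of all promoters. The core CCGGAA of ETS family sites, among them GABP sites, stood in 30 (56.6%), against 14.98% of all promoters. Both strands were searched, and each match on either strand was counted, so overlapping matches count separately. At least 1 of the 3 elements stood in 36 of the 53 promoters (67.9%), against 18.4% of all. The promoters of Mrpl23 and Mrps31 are shown because these are the ribosomal subunit genes with the largest increase and the largest decrease under adenine, and that of Mrps18b as 1 of 2 that hold all 3 elements, the other being that of Mrpl32. Capitals mark the matches. They lie at chr1:207116680-207116979 on the plus strand (Mrpl23), at chr16:76324016-76324315 on the minus strand (Mrps31) and at chr20:2842756-2843055 on the plus strand (Mrps18b).
Mrpl23: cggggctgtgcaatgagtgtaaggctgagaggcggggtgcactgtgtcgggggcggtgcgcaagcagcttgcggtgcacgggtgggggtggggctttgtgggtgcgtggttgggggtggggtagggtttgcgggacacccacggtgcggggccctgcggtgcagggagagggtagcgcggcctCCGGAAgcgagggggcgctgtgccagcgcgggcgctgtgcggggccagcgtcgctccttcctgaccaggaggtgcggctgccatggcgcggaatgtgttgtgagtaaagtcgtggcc
Mrps31: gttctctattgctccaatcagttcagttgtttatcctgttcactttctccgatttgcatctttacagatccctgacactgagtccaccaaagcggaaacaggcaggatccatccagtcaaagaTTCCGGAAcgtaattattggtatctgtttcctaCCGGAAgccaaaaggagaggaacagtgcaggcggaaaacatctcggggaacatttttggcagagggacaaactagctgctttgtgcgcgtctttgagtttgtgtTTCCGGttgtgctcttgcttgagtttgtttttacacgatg
Mrps18b: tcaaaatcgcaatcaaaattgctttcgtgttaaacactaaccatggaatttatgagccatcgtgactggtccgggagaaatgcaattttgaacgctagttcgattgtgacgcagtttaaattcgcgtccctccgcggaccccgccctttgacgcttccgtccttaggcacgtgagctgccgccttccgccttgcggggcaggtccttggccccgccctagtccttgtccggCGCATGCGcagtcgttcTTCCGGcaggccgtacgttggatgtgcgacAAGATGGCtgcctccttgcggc
The Mrps31 promoter holds 4 ETS matches, the Mrpl23 promoter 1, and the Mrps18b promoter 1 of each element. A match describes the sequence and does not show that a factor binds there.

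Levels are given as FPKM, fragments per kilobase of gene length after scaling for library size, so that genes of different length can be compared. Genes with an FPKM of 1 or more in 6 or more of the 18 libraries were tested, and 68 of the 70 genes passed. Averaged over all libraries, their levels ran from 5.71 to 70.4 FPKM with a median of 20.9, against a median of 7.51 FPKM for the 13851 genes tested. The highest were Mrpl17 of the large subunit, Mrpl12, part of the stalk that recruits translation factors, and Mrps25 of the small subunit. The lowest were Mrpl47, Mrpl30 and Mrpl57. The 68 genes were short by the gene lengths given with the values, with a median of 1494 bases (range 622 to 5137), against 2832 for all genes tested. The 2 genes that did not pass were near 0 in every library: Mrps17 reached at most 0.202 FPKM in SZ kidneys, 0.359 in CKD kidneys and 0.238 in NC kidneys. The other was a second row named Mrpl42, with at most 0.262, 0.147 and 0.160 FPKM in SZ, CKD and NC kidneys, beside the main Mrpl42 gene at means of 13.97, 14.2 and 17.2 FPKM.

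All libraries had similar depth, with 15354358 to 18532375 reads recovered from the deposited values, of which the 68 genes took 0.200% to 0.342%. The library sizes by which the authors scaled averaged 1.04 times those totals in SZ, 1.14 in CKD and 0.896 in NC. The FPKM therefore set each gene against the bulk of genes, and every direction below is relative to that bulk. Values also followed gene length differently between libraries. Long genes were low relative to short ones in CKD 5, SZ 3 and CKD 2, by 0.320, 0.251 and 0.213 log2 units per doubling of length, and in CKD 1 the slope was -0.10. The other 14 libraries lay between 0.0085 and 0.119. The slope averaged -0.084 ± 0.158 in CKD and 0.056 ± 0.035 in NC (SD, n = 6 each; exact permutation p = 0.058, adjusted p = 0.12 over 9 comparisons). The share of reads on ribosomal RNA genes of the nucleus averaged 138 ± 57.1 ppm for SZ libraries, 548 ± 639 ppm for CKD libraries and 116 ± 30.0 ppm for NC libraries, with CKD 5 highest at 1741 ppm (CKD against NC, exact permutation p = 0.022, adjusted p = 0.066). Its part in the results was not tested. Results are therefore given as deposited, after a correction of each library for gene length, and without CKD 2, CKD 5 and SZ 3.

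As deposited, few of these genes passed the test under adenine alone, and most of those that passed were lower. Their number and direction changed with the scaling and with the libraries used, as given below. Of the 68, 9 fell in CKD kidneys and 1 rose (limma on log2(FPKM + 1), adjusted p under 0.05 over all genes). Together these are 14.7% of the 68, against 50.3% of all genes tested, of which 24.4% rose and 26.0% fell. The median log2 difference of the 68, CKD minus NC, was -0.13, against -0.04 for all genes tested, and 47 of the 68 were below 0. At this scaling 65 of the 68 differed by less than 1.5-fold, and the middle of the list ran from -0.24 (lower quartile) to 0.03 (upper quartile). The share of all genes below 1.5-fold was not counted. Groups did not overlap for 3 of the 68 (4.41%), with Mrpl23 above and Mrps36 and Mrps2 below, against 26.5% of all genes tested. In bulk tissue, fewer cells that express a gene and less of its RNA in each cell cannot be told apart.

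**Figure D1:**
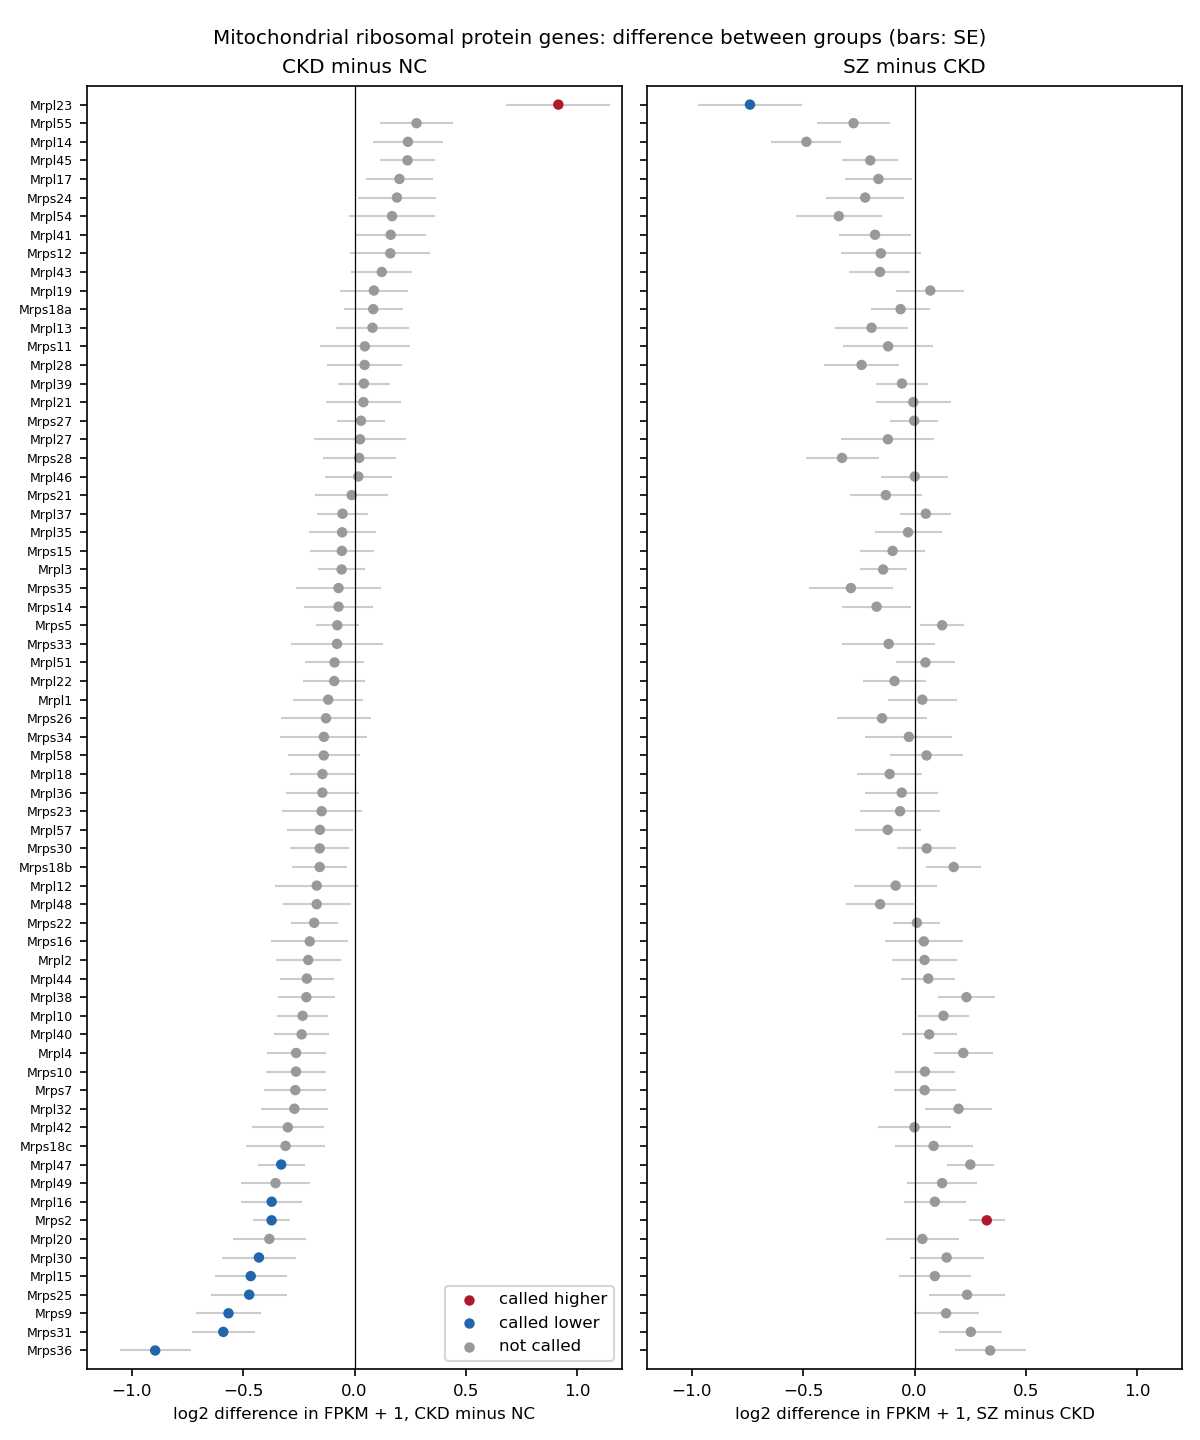
Log2 differences in FPKM + 1 of the 68 tested genes (points) with their standard errors (bars), CKD minus NC on the left and SZ minus CKD on the right, in the order of the CKD minus NC value. The differences run from -0.89 (Mrps36) to 0.91 (Mrpl23) on the left and from -0.74 (Mrpl23) to 0.34 (Mrps36) on the right.

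The gene with the largest decrease was Mrps36, which links the subunits of the oxoglutarate dehydrogenase complex and is no part of the ribosome. Mrps36 ran from 25.3 to 34.1 FPKM in SZ kidneys (median 26.9), from 14.4 to 34.6 in CKD kidneys (median 19.4) and from 38.3 to 45.6 in NC kidneys (median 41.3). Every CKD and every SZ library lay below every NC library, and the SZ libraries lay within the range of CKD. The log2 difference was -0.89 ± 0.16 for CKD minus NC (SE, adjusted p = 0.000156) and -0.56 ± 0.16 for SZ minus NC (adjusted p = 0.019). It was 0.34 ± 0.16 for SZ minus CKD (adjusted p = 0.17), which did not pass as deposited and passed after the length correction (0.42, adjusted p = 0.041). The lower level in CKD than in NC was called under all 32 alternatives tried.

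The one increase was in Mrpl23, a protein of the large subunit at the exit of the peptide tunnel (mRatBN7.2, chr1:197687347-197695222, plus strand). Mrpl23 ran from 10.1 to 20.9 FPKM in SZ kidneys (median 11.8), from 14.2 to 44.9 in CKD kidneys (median 19.8) and from 8.33 to 12.5 in NC kidneys (median 12.1). All CKD libraries lay above all NC libraries, with CKD 5 at 44.9 and CKD 2 at 32.8 FPKM far above the other CKD libraries. The log2 difference was 0.91 ± 0.23 for CKD minus NC (adjusted p = 0.0032) and was called under all 32 alternatives. Without CKD 2, CKD 5 and SZ 3 it was 0.54 ± 0.13 (adjusted p = 0.0036). In SZ against CKD, Mrpl23 fell, with a log2 difference of -0.74 ± 0.23 (adjusted p = 0.048), a call that held under 12 of the 32 alternatives. Its SZ level did not pass the test against NC (0.18 ± 0.23, adjusted p = 0.64).

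Of 24 tested small subunit genes taken by the symbol rule, 4 fell in CKD kidneys and none rose, against 26.0% and 24.4% of all genes. The median log2 difference of the 24 was -0.13. Outside that rule, Dap3 and a gene described as the small subunit protein S6 rose and none was called lower, as given below. Mrps31 ran from 9.85 to 16.8 FPKM in SZ kidneys (median 13.96), from 8.21 to 16.4 in CKD kidneys (median 10.9) and from 13.8 to 18.6 in NC kidneys (median 17.8). The CKD and NC ranges overlapped only through CKD 1 at 16.4 and NC 1 at 13.8 FPKM. Its log2 difference was -0.59 ± 0.14 (CKD minus NC, adjusted p = 0.0020). Mrps9, a protein of the small subunit head with a bacterial counterpart, ran from 28.4 to 41.3 FPKM in SZ kidneys (median 32.9), from 21.1 to 50.2 in CKD kidneys (median 29.6) and from 41.6 to 48.0 in NC kidneys (median 45.6). CKD 1 was the highest of all libraries at 50.2 FPKM, while the other 5 CKD libraries and all SZ libraries lay below every NC library. For Mrps9, CKD minus NC was -0.57 ± 0.15 (adjusted p = 0.0034) and SZ minus NC was -0.42 ± 0.15 (adjusted p = 0.045). Mrps25 averaged 53.8 ± 6.31 FPKM in SZ, 47.6 ± 16.3 in CKD and 63.6 ± 6.89 in NC (SD, n = 6 each), and its CKD minus NC difference was -0.47 ± 0.17 (adjusted p = 0.028).

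Mrps2, the small subunit protein whose bacterial counterpart joins the subunit late in assembly, was lower in CKD kidneys than in both other groups. Mrps2 ran from 16.4 to 19.3 FPKM in SZ kidneys (median 17.7), from 12.3 to 15.9 in CKD kidneys (median 14.1) and from 17.3 to 19.9 in NC kidneys (median 18.3). The 6 CKD libraries lay below all other libraries. The log2 difference was -0.37 ± 0.082 for CKD minus NC (adjusted p = 0.0010) and 0.32 ± 0.082 for SZ minus CKD (adjusted p = 0.020), and SZ minus NC was -0.048 ± 0.082 (adjusted p = 0.72). CKD minus NC was called under 30 of 32 alternatives and SZ minus CKD under 28 of 32. Scaled to a fixed FPKM sum, Mrps2 had a CKD minus NC difference of 0.058 (adjusted p = 0.67, the highest over the 32 alternatives, of which the lowest was 0.000347). The SZ minus CKD call of Mrps2 was lost at that scaling (0.19, adjusted p = 0.23) and with plain read totals (0.20, adjusted p = 0.085). It was also lost with only the groups compared and without SZ 4.

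**Figure D2:**
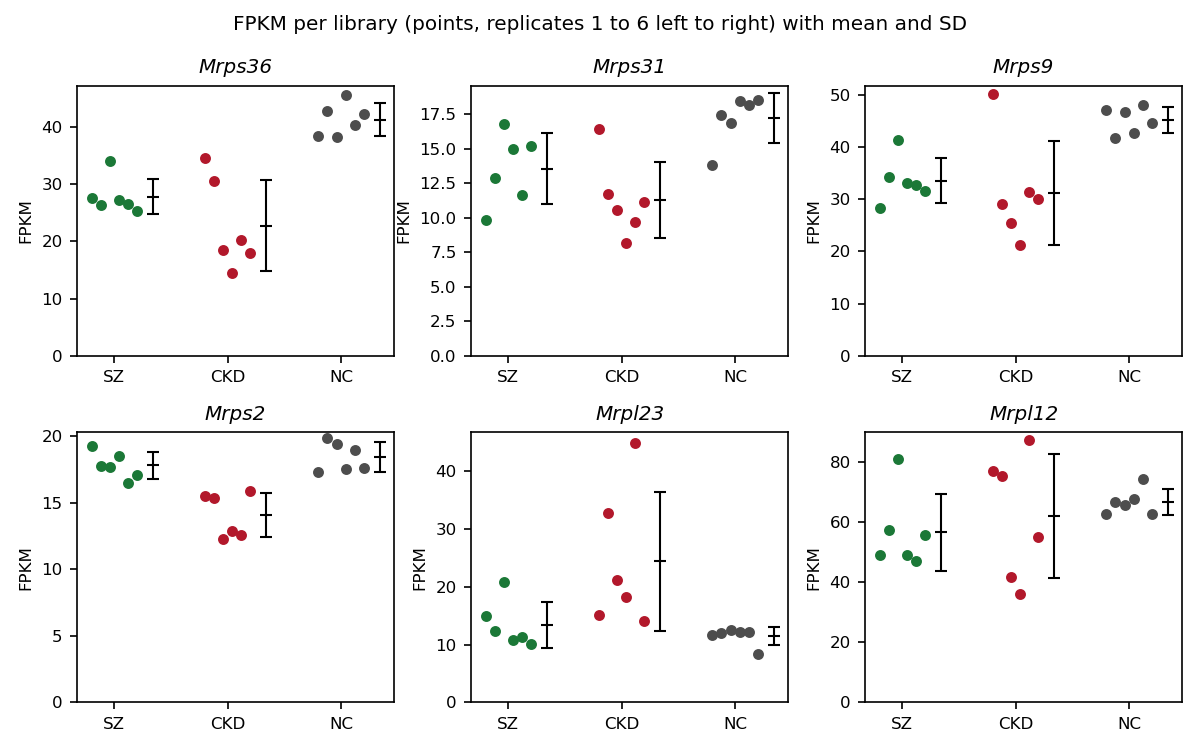
FPKM in each library (points, replicates 1 to 6 from left to right within a group) with the mean and SD of each group (bars), for SZ, CKD and NC. The CKD libraries of Mrps2 lie between 12.3 and 15.9 FPKM, below all SZ and NC libraries, and those of Mrpl12 range from 36.3 to 87.3 FPKM around the NC values.

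Large subunit genes had a median log2 difference of -0.12 for CKD minus NC. Of the 43, 4 fell in CKD kidneys and 1 rose, against 26.0% and 24.4% of all genes. Besides Mrpl23, all 4 encode proteins with a bacterial counterpart: Mrpl15 (-0.47 ± 0.16, adjusted p = 0.023), Mrpl30 (-0.43 ± 0.17, adjusted p = 0.038), Mrpl16 (-0.37 ± 0.14, adjusted p = 0.032) and Mrpl47 (-0.33 ± 0.11, adjusted p = 0.014). None of the 18 large subunit genes without such a counterpart was called as deposited, and their median was -0.11, against -0.12 for the 25 with one. After the length correction 5 of the 18 and 7 of the 25 were lower, against 27.0% of all genes. Without CKD 2, CKD 5 and SZ 3 it was 7 of the 18 and 7 of the 25, against 26.4% of all genes. A difference between these classes was not tested. Mrpl30 averaged 5.94 ± 1.25 FPKM in SZ, 5.46 ± 1.98 in CKD and 7.36 ± 0.398 in NC (SD, n = 6 each). Mrpl16 overlaps Stx3 and Mrpl47 overlaps Actl6a in the genome. Strand handling is not stated, so reads of overlapping genes cannot be told apart. This applies to 20 of the 68 genes and to 2 of the 10 called. Neither Mrpl16 nor Mrpl47 was called after the length correction. Of the 32 alternatives, 20 called Mrpl30, 21 Mrpl16, 25 Mrps25, and 28 each Mrpl15 and Mrpl47.

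Other genes of known function within the ribosome did not pass the test as deposited. Mrpl12, which also binds the mitochondrial RNA polymerase, ran from 47.1 to 81.1 FPKM in SZ kidneys (median 52.4), from 36.3 to 87.3 in CKD kidneys (median 65.2) and from 62.8 to 74.3 in NC kidneys (median 66.1). Its CKD libraries were on both sides of all NC libraries, and CKD minus NC was -0.17 ± 0.19 (adjusted p = 0.46). Mrpl58, a peptidyl-tRNA hydrolase built into the ribosome that rescues stalled complexes, averaged 31.8 ± 8.41 FPKM in SZ, 30.6 ± 7.08 in CKD and 33.0 ± 2.80 in NC. Mrps12, the counterpart of the bacterial protein that guards decoding accuracy, averaged 27.9 ± 7.96, 31.3 ± 8.83 and 27.3 ± 4.09 FPKM in SZ, CKD and NC. Mrps27, a small subunit protein, averaged 8.90 ± 1.29, 8.96 ± 1.66 and 8.66 ± 0.410 FPKM in SZ, CKD and NC (SD, n = 6 each). None of Mrpl58, Mrps12, Mrps27, Mrpl44, Mrps22, Mrps30, Mrps18a and Mrpl57 passed the test in any comparison as deposited, and their adjusted p-values for CKD minus NC lay between 0.15 (Mrpl44) and 0.84 (Mrps27). Mrpl17, the most abundant, averaged 68.4 ± 14.3 FPKM in SZ, 77.3 ± 19.5 in CKD and 65.6 ± 5.17 in NC, with a CKD minus NC difference of 0.20 ± 0.15 (adjusted p = 0.27).

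The 68 genes varied more between CKD libraries than between the others. Their median SD in log2(FPKM + 1) was 0.24 in SZ, 0.37 in CKD and 0.14 in NC, against 0.24, 0.32 and 0.18 for all genes tested. The SD in CKD exceeded that in NC for 65 of the 68. Within CKD the libraries split: the median of the 68 genes, relative to their NC means, was 0.13 in CKD 1, 0.12 in CKD 2 and 0.24 in CKD 5, and -0.31 in CKD 3, -0.59 in CKD 4 and -0.25 in CKD 6. In CKD 4, 67 of the 68 genes lay below their NC mean, and in CKD 5 there were 21. SZ 3 stood at 0.29 and the other 5 SZ libraries between -0.30 and -0.17, while the NC libraries lay between -0.08 and 0.09. The 4 libraries above the NC range, CKD 1, CKD 2, CKD 5 and SZ 3, are the 4 with a negative slope on gene length. After the length correction they moved to 0.03, -0.06, -0.0022 and 0.06, and CKD 3, CKD 4 and CKD 6 to -0.26, -0.44 and -0.23.

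**Figure D3:**
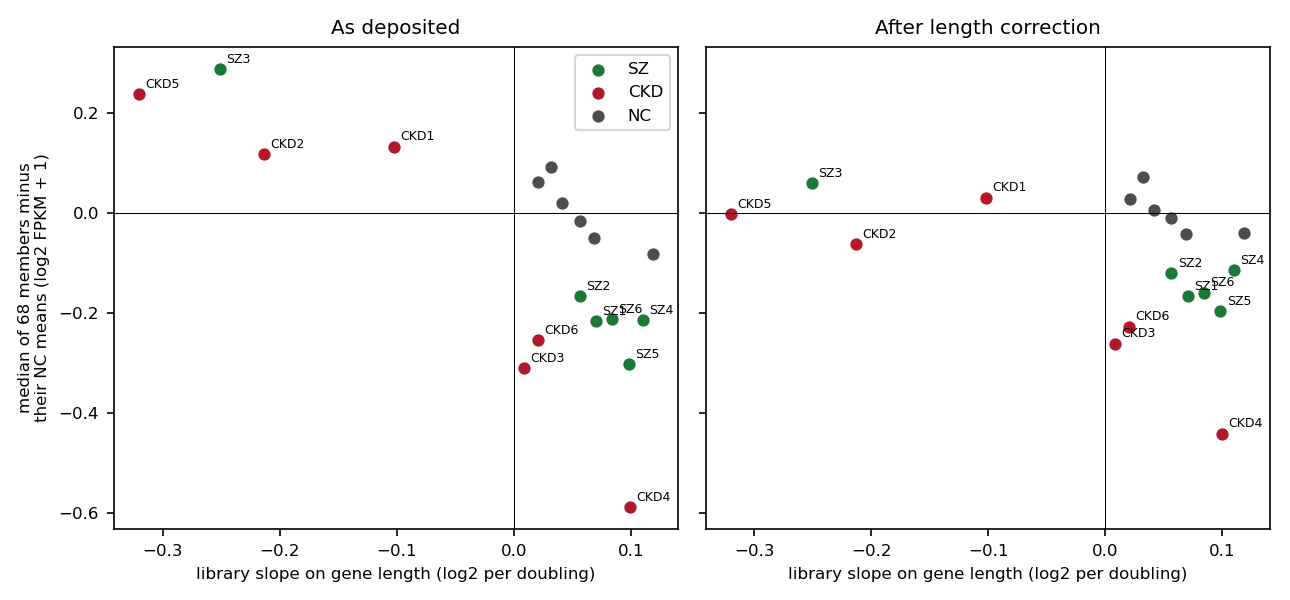
Median over the 68 genes of log2(FPKM + 1) minus their NC mean (vertical axis) against the slope of each library on gene length (horizontal axis), for SZ, CKD and NC libraries, as deposited on the left and after the length correction on the right. CKD 5, SZ 3, CKD 2 and CKD 1 have negative slopes and medians of 0.24, 0.29, 0.12 and 0.13 on the left, and CKD 4 is lowest at -0.59.

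Length also ordered the genes among themselves. Across the 68 genes, the CKD minus NC difference had a Pearson r of -0.28 with log2 gene length, and the SZ minus CKD difference 0.30; these are descriptions over genes that share libraries. The shorter 34 had a median CKD minus NC difference of -0.04, with 1 higher and 2 lower, and the longer 34 a median of -0.16, with 7 lower. After the length correction r was -0.16 for CKD minus NC and 0.08 for SZ minus CKD. The corrected values gave 21 lower and 1 higher genes in CKD against NC, against 27.0% lower and 26.7% higher of all genes. The median of the 68 was then -0.19, against -0.01 for all genes. Of the 9 genes lower as deposited, 7 were among the 21. Those added include Mrpl44, an RNase III family protein of the large subunit (adjusted p = 0.029), and Mrps22 (adjusted p = 0.032), but not Mrpl12 (adjusted p = 0.14).

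Leaving out CKD 2, CKD 5 and SZ 3 gave 24 lower genes and 1 higher in CKD against NC, against 26.4% lower and 23.9% higher of all genes, with all 9 of the original among the 24 and a median of -0.27. Mrpl12 was then called lower (-0.39 ± 0.15, adjusted p = 0.043). In CKD 2, CKD 5 and SZ 3 the medians of the 68 genes relative to their NC means were high (0.12, 0.24 and 0.29). Leaving these libraries out therefore favours lower calls by the choice of libraries, and the added calls are no separate support for a decrease. Scaling had the opposite effect. With every library scaled to a fixed FPKM sum, 33 of the 68 genes were higher in CKD and 1, Mrps36, was lower, against 47.5% higher and 9.23% lower of all genes. This moved the median of all genes tested to 0.37, and the 68 stood at 0.31. With plain read totals 17 were higher and 1 lower, against 43.2% and 12.5% of all genes, at a median of 0.20 against 0.25 for all genes. The 68 genes thus lay below the median of all genes by 0.093 as deposited, 0.062 at a fixed FPKM sum and 0.051 at plain totals. Without CKD 4 this difference turned, with the 68 at -0.02 and all genes at -0.04, and without CKD 3 or CKD 6 the 68 lay 0.032 or 0.039 below. Of the 9 decreases that of Mrps36 alone was called under either of the scalings.

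**Figure D4:**
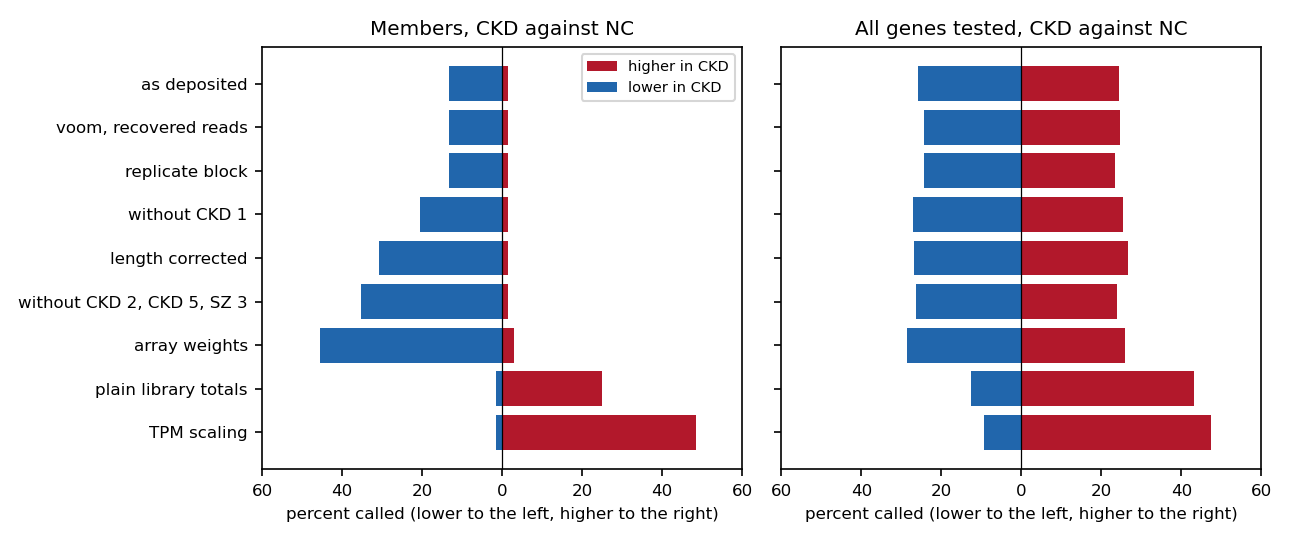
Percent of the 68 genes (left) and of all 13851 genes tested (right) called lower (bars to the left of 0) and higher (bars to the right of 0) in CKD against NC, under the deposited scaling and 8 alternatives. Lower calls among the 68 number 9 as deposited, 21 after the length correction and 31 with array weights, while at a fixed FPKM sum 33 are called higher.

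Few of these genes passed the test between SZ and CKD kidneys. Of the 68, Mrps2 rose and Mrpl23 fell in SZ against CKD (2.94%, against 11.0% of all genes tested, of which 4.16% rose and 6.82% fell), and the median log2 difference was -0.0039, against 0.0055 for all genes. At an unadjusted p under 0.05 there were 3 higher and 2 lower. Only Mrps2 had ranges that did not overlap (1.47% of the 68, against 2.26% of all genes). Next to the threshold was Mrpl14, a large subunit protein that meets the small subunit, chosen here after its values were seen. Mrpl14 averaged 9.40 ± 2.09 FPKM in SZ and 13.8 ± 4.43 in CKD, a log2 difference of -0.49 ± 0.16 (adjusted p = 0.053). After the length correction 4 genes were higher (Mrps2, Mrps36, Mrps18b and Mrpl38) and 2 lower (Mrpl23 and Mrpl14), against 5.83% and 8.39% of all genes.

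Against NC, SZ kidneys had 2 lower genes, Mrps36 and Mrps9, and no higher one (2.94%, against 21.1% of all genes tested, of which 12.5% were higher and 8.61% lower). At an unadjusted p under 0.05 there were 6 lower and no higher genes, and limma's voom on the recovered reads called 1 lower and no higher, against 7.06% and 12.3% of all genes. The median of the 68 was -0.16, against -0.04 for all genes, and 55 of the 68 were below 0. The ranges of Mrps36, Mrps9 and Mrpl15 in SZ lay below those in NC (4.41%, against 14.6% of all genes). Without CKD 2, CKD 5 and SZ 3, 10 of the 68 were lower in SZ than in NC and none higher, against 12.6% and 15.3% of all genes, and the median was -0.24. This leaves out SZ 3, the SZ library in which the 68 genes were highest, and so favours lower calls by the choice of libraries.

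A further 5 genes encode structural ribosome proteins but have symbols without the Mrp stem. Dap3, a GTP-binding protein of the small subunit, was the 1 of 5 called in CKD against NC: it rose, averaging 8.19 ± 1.91 FPKM in SZ, 10.5 ± 1.39 in CKD and 7.82 ± 0.711 in NC (CKD minus NC 0.37 ± 0.12, adjusted p = 0.013). Of all genes, 24.4% rose as deposited. At a fixed FPKM sum 4 of the 5 were higher, against 47.5% of all genes, and with plain totals 3, against 43.2%. Ptcd3, Aurkaip1, Chchd1 and Gadd45gip1 had CKD minus NC differences of -0.02, -0.11, 0.14 and 0.35 with adjusted p-values of 0.11 or more.

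Among genes that build and feed the mitochondrial ribosome, some fell under adenine and none rose as deposited, where 26.0% of all genes tested fell and 24.4% rose. At a fixed FPKM sum, 47.5% of all genes were higher and 9.23% lower, the shares against which the counts at that scaling stand. Of 25 assembly factors, 7 fell in CKD against NC (28.0%, near the share of all genes), with a median of -0.14; at a fixed FPKM sum 10 were higher and 1 lower. They included Ybey (-0.56 ± 0.10, adjusted p = 0.000248), Rpusd3 (-0.79 ± 0.15, adjusted p = 0.000264) and the helicase Dhx30 (-0.41 ± 0.11, adjusted p = 0.0034). Of 17 translation factors, 9 fell (52.9%), with a median of -0.31; at a fixed FPKM sum 4 were higher and 1 lower. Taco1, the activator of translation of the mRNA for cytochrome oxidase subunit I, averaged 5.38 ± 0.984 FPKM in SZ, 3.85 ± 0.945 in CKD and 9.03 ± 1.13 in NC (CKD minus NC -1.06 ± 0.13). Mrrf and Gfm2, which take the ribosome apart after termination, fell by 0.67 and 0.56 on the log2 scale, while the elongation factor Tufm had -0.27 ± 0.12 (adjusted p = 0.077). Of 17 aminoacyl-tRNA synthetases and amidotransferase subunits, 8 fell (47.1%, median -0.30), among them Gatb, Iars2 and Lars2, and at a fixed FPKM sum 3 were higher and 1 lower.

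Of 18 genes for maintenance and transcription of the mitochondrial chromosome, 7 fell and none rose (38.9%, median -0.24), against 26.0% of all genes lower. At a fixed FPKM sum 7 were higher and 1 lower, against 47.5% and 9.23% of all genes. Those that fell as deposited included Tfb2m (-0.75 ± 0.15), Supv3l1 (-0.45 ± 0.085), Hsd17b10 (-0.66 ± 0.18) and the RNA polymerase Polrmt (-0.37 ± 0.10, adjusted p = 0.0060). Tfam, which packages mitochondrial DNA, averaged 26.8 ± 3.86 FPKM in SZ, 29.0 ± 4.94 in CKD and 30.2 ± 2.98 in NC, with a CKD minus NC difference of -0.07 ± 0.12 (adjusted p = 0.64). Of 26 import and membrane genes 9 fell and none rose (34.6%, median -0.27), among them Vdac1 (-0.98 ± 0.13), Timm23 and Hspa9, and at a fixed FPKM sum 10 were higher and 2 lower. Whether these lists differ from the 68 genes was not tested. At a fixed FPKM sum the median of all genes was 0.37. The assembly, translation, synthetase, maintenance and import lists then had medians of 0.28, 0.07, 0.07, 0.19 and 0.18. The signs of these medians turned, but each list stayed below the median of all genes, as it was as deposited. With plain read totals, at 0.25 for all genes, these medians were 0.17, -0.03, -0.03, 0.08 and 0.07. In SZ against CKD, 1 assembly factor, 1 translation factor, 2 synthetases, 1 maintenance gene and 3 import genes rose and none fell, against 4.16% of all genes that rose. For the translation (5.88%) and maintenance (5.56%) lists, and for the assembly list with 1 of 25, this is about the share of all genes. At a fixed FPKM sum no gene of these lists rose and 2 import genes fell, where 285 of all 13851 genes rose and 1613 fell.

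Of 11 regulators of mitochondrial genes, 5 fell in CKD against NC and 2 rose, against 26.0% and 24.4% of all genes. At a fixed FPKM sum 2 were lower and 6 higher, against 9.23% and 47.5% of all genes. Ppargc1a, the PGC-1 alpha coactivator, averaged 10.1 ± 4.38 FPKM in SZ, 6.65 ± 3.30 in CKD and 14.96 ± 2.11 in NC (CKD minus NC -1.21 ± 0.35, adjusted p = 0.0075). Ppara and Esrrg, nuclear receptors that act with it, differed by -2.08 ± 0.39 and -1.34 ± 0.31. Myc rose, with 12.4 ± 3.90 FPKM in SZ, 17.6 ± 5.39 in CKD and 5.76 ± 3.32 in NC (CKD minus NC 1.55 ± 0.29, adjusted p = 0.000224). Nrf1, whose binding letters are given above, had 2.38 ± 0.208, 2.70 ± 0.361 and 2.27 ± 0.112 FPKM in SZ, CKD and NC (CKD minus NC 0.17 ± 0.084, adjusted p = 0.093). Ppara rose in SZ against CKD (1.22 ± 0.39, adjusted p = 0.049), a call that was lost at a fixed FPKM sum and with plain totals, and Ppargc1a had 0.55 ± 0.35 (adjusted p = 0.30).

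**Figure D5:**
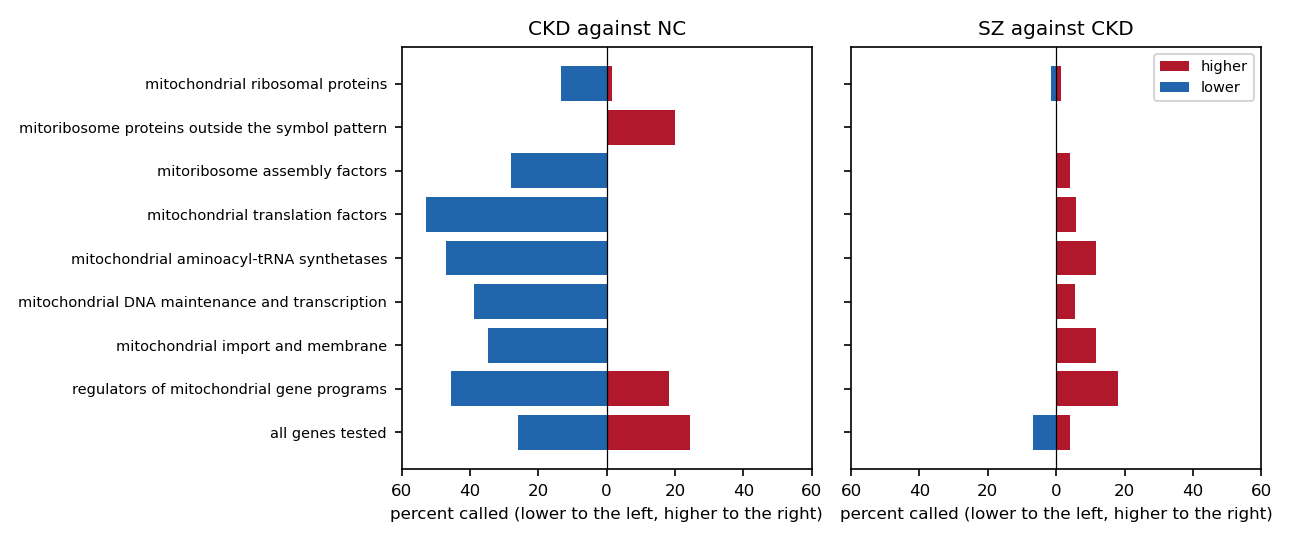
Percent of the tested genes of each list called lower (bars to the left of 0) and higher (bars to the right of 0), in CKD against NC on the left and SZ against CKD on the right. In CKD against NC 9 of 68 ribosomal protein genes and 9 of 17 translation factors are lower, and in SZ against CKD the lists hold at most 3 higher genes each.

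The mRNAs that the mitochondrial ribosome translates were lower in CKD than in NC. The 13 mRNAs of the mitochondrial chromosome had a median log2 difference of -1.38 for CKD minus NC, with all 13 below 0, and 0.66 for SZ minus CKD. Its 2 ribosomal RNAs had differences of -0.74 and -0.08 for CKD minus NC (median -0.41). For SZ minus CKD they had -0.16 and 0.17. Transcripts of that chromosome took 14.05 ± 2.83% of reads in SZ, 10.3 ± 3.61% in CKD and 19.4 ± 3.28% in NC (SD, n = 6 each). CKD and NC differed (exact permutation p = 0.0043, adjusted p = 0.039 over 9 comparisons), and SZ and CKD did not pass (exact permutation p = 0.087, adjusted p = 0.13).

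Markers of kidney cell types moved with the groups. Of 10 proximal tubule markers 9 fell in CKD against NC, and their summed level was 4079 to 5700 FPKM in SZ, 944 to 5046 in CKD and 6894 to 9334 in NC. Of 10 macrophage markers all 10 rose, with sums of 431 to 954 FPKM in SZ, 1045 to 2205 in CKD and 112 to 213 in NC. All 7 tested fibroblast markers of 8 rose, with sums of 196 to 399 FPKM in SZ, 343 to 890 in CKD and 54.7 to 165 in NC. No marker was at 0 in all libraries. Of all genes tested, 26.0% fell and 24.4% rose in CKD against NC. In SZ against CKD, 8 proximal tubule markers rose, and 9 macrophage and 3 fibroblast markers fell, where 4.16% of all genes rose and 6.82% fell. The part of these markers in the values of the ribosomal protein genes was not tested.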

How the data were processed

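RNA of whole rat kidneys was sequenced in 18 libraries, 6 per group, made with an Illumina TruSeq RNA kit per the labels' protocols. The authors deposited 1 table of FPKM values. HISAT2 2.0.5 and the build mRatBN7.2 are named in the submitters' processing notes. How reads were counted, with which strand setting and annotation, is not given in these sources. For 100% of values, FPKM steps gave whole reads within a tolerance of 0.01, with totals of 15354358 to 18532375 per library. The deposited FPKM were put on a log2 scale as log2(FPKM + 1), which understates changes of low genes. They were tested with limma 3.58.1 (R 4.3.3), fitting 3 group means to all 18 libraries together, with an intensity trend and 2-sided tests. Adjustment was by Benjamini-Hochberg over the 13851 genes with FPKM of 1 or more in 6 or more libraries, and a gene was called at an adjusted p under 0.05. Single library measures were put to 2-sided exact permutation tests.

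Alternatives were a pseudocount of 0.1, other filters, other scalings, only the groups compared, no trend, array weights, a replicate block, a lowess length correction (span 0.3), limma's voom on the recovered reads with trimmed mean of M-values scaling, and leaving out libraries. Length correction combined with leaving out CKD 2, CKD 5 and SZ 3 was added after seeing the data. The steps were checked on simulated data. Genes named with values are the up to 6 called members per direction with the largest differences, the 3 highest and 3 lowest members by mean FPKM, a set of members and related genes named whatever their values, and up to 3 called genes per list. Mrpl16, Mrpl14, Mrpl38 and Mrps18b were named after their values were seen. The members and lists were chosen with earlier results of these data known. The letters searched for NRF1 were shortened after a longer form had been counted, which stood in fewer promoters. Tables were made in Python 3.11.15.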

Additional observations from a re-analysis of the deposited data

Results flagged for a closer look

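In 63 sets of 6 libraries, 12 had 1 library far from the other 5; chance gives this in about 1 of 20 sets. In SZ the highest library stood apart for Mrps36 (34.1 FPKM), Mrpl12 (81.1), Mrpl17 (96.0), Mrpl57 (10.1), Mrpl44 (23.3), Mrps12 (44.0) and Mrps18a (32.6), and in each case this was SZ 3. SZ 3 also stood apart in the median of the 68 genes relative to NC (0.287 log2 units) and in its slope on gene length (-0.251 log2 units per doubling). In CKD the highest library for Mrps9, CKD 1 at 50.2 FPKM, stood apart. In NC the lowest libraries for Mrpl23 (NC 6, 8.33 FPKM) and Mrps31 (NC 1, 13.8 FPKM) stood apart. The cause of these values was not tested.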

How the results depend on the processing

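Of the single-gene results under the alternatives, 3216 kept direction and side of the threshold, 193 lost and 78 gained a call, 80 uncalled ones moved by more than their error and 9 reversed. Among the genes named by rule, scaling to a fixed FPKM sum reversed the CKD minus NC difference of Mrps2 (0.058), Mrpl47 (0.058), Mrps22 (0.26), Aurkaip1 (0.34), Tfam (0.38; 0.27 with plain totals), Polrmt (0.033), Dhx30 (0.0081) and Iars2 (0.014); it also turned Mrpl16 (0.051), and of the 68 genes 62 were then above 0, against 21 as deposited. The scaling's own construction moved the median gene to 0.37.

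For CKD against NC, a fixed FPKM sum gave 33 higher and 1 lower of the 68 with a median of 0.31, plain totals 17 and 1 with a median of 0.20, only the groups compared 5 lower, array weights 2 and 31, the length correction 21 lower, and this without the 3 libraries 31 lower. Without CKD 2, CKD 5 and SZ 3 there were 24 lower. Of all 13851 genes tested, 3433 were called lower with only the groups compared, 3966 with array weights and 3735 after the length correction. Length correction without the 3 libraries called 3588 of all genes lower, and leaving out the 3 libraries alone called 3653. Of calls over all genes, 48.4% were higher as deposited, 83.7% at a fixed sum and 77.6% with plain totals. Leaving out single libraries gave 1 to 2 higher and 5 (without CKD 3) to 14 (without CKD 1) lower, with medians from -0.19 (without CKD 5) to -0.02 (without CKD 4). A mean FPKM of at least 5 left 4447 genes called of 8491.

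For SZ against CKD, 0 were lower at a pseudocount of 0.1, with no filter, by voom and with only the groups compared, which also left 0 higher and 554 genes called over all genes. There were 2 lower at a mean FPKM of at least 5 and without the 3 libraries, 0 higher and 2 lower under both other scalings, 3 and 3 with array weights (2830 over all genes), 4 and 2 after the length correction and 2 higher when the 3 libraries were also left out. Of all genes, 285 were higher and 1613 lower at a fixed sum, and 382 and 1752 with plain totals. Leaving out single libraries gave 0 to 3 higher, 0 to 6 (without SZ 3) lower, and 533 (without SZ 4) to 3058 (without SZ 3) calls over all genes.

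For SZ against NC, 1 was lower with no filter and by voom, 2 were higher and 0 lower at a fixed sum (median 0.14), 0 lower with plain totals, 5 with only the groups compared, 28 with array weights (5492 over all genes), 10 without the 3 libraries and 9 when these were also length corrected. A mean FPKM of at least 5 left 1627 calls. Leaving out single libraries gave 1 to 4 lower (4 without SZ 3). Where neither direction had a call, limma's unadjusted p was under 0.05 for 4 of the 68 (SZ against CKD, only the groups compared), 3 (SZ against CKD without SZ 4) and 3 (SZ against NC, plain totals). Causes were not tested unless named.

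Correlations of same-numbered libraries, after group means were taken off, ran from -0.36 to 0.23. Libraries with different numbers were not set beside them, so whether replicate numbers pair the libraries cannot be told. With the replicate number as a block, 1 was higher and 9 lower in CKD against NC, 1 and 1 in SZ against CKD, and 1 lower in SZ against NC. With the block and length correction together 19 were lower in CKD against NC, and 2 higher and 2 lower in SZ against CKD.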

Other observations

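Several mitochondrial ribosomal proteins are encoded by genes that the symbol rule did not take, found by their symbol or description after the values were seen. Rows named mrpl9, mrpl11 and mrpl24 in lower case averaged 19.5, 22.8 and 18.9 FPKM in SZ, 23.7, 25.2 and 20.7 in CKD and 20.04, 27.2 and 18.04 in NC, and none was called in CKD against NC (log2 differences 0.20, -0.16 and 0.15). ENSRNOG00000059381, a gene without a symbol that the table describes as the small subunit protein S6, averaged 25.7 ± 9.43 FPKM in SZ, 38.1 ± 13.1 in CKD and 20.8 ± 4.26 in NC (SD, n = 6 each). It rose in CKD against NC (log2 difference 0.80, limma adjusted p = 0.0058), and SZ minus CKD was -0.55 (adjusted p = 0.11). Other genes without a symbol, described as the large subunit proteins L50, L34 and L33, were not called in CKD against NC (log2 differences -0.39, -0.16 and -0.03; adjusted p = 0.066, 0.45 and 0.92). A further 16 rows carry the name of such a protein in their description, and the highest of them averaged 0.998 FPKM.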
